A study of Mus musculus with 10 samples.

Results

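The genes described here build the autophagosome, the double membrane that closes around cell contents and carries them to the lysosome. The members were 33 genes taken by symbol from the deposited table of 18493 genes, and all 33 were found. They are the ULK kinase complex (5 genes), the class III phosphatidylinositol 3-kinase (PI3K) complex (5), the ATG2, WIPI and ATG9 genes of membrane delivery (8), the conjugation enzymes (10) and the Atg8 family (5). Levels came from mouse oocytes profiled by the smart-seq2 method, in which poly(A) RNA is primed with oligo dT and its cDNA amplified over the whole transcript. The 10 libraries were spermidine (n = 4, labelled as a rescue), aged (n = 3, labelled as treatment) and young (n = 3, labelled as control). All came from the ovary of the mouse, and by the design text the spermidine libraries stand for aged oocytes given spermidine, a polyamine. The labels give no strain, age, dose, route, maturation stage or number of oocytes per library, and nothing says that libraries of a group came from separate animals. The p-values therefore reflect only how much these libraries vary, and that variation may be technical.

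Autophagosome formation begins when the ULK kinase complex activates the lipid kinase complex, which marks a patch of membrane with phosphatidylinositol 3-phosphate. WIPI proteins read that lipid, ATG9 vesicles seed the membrane and ATG2 bridges lipid into it from the endoplasmic reticulum. A pair of ubiquitin-like systems then couples ATG12 to ATG5 and the Atg8 proteins (LC3 and GABARAP) to lipid, which elongates and closes the membrane. In the mouse, loss of Atg5 from both the oocyte and the sperm is known to impair early embryo development. Loss of Atg7 is known to reduce the pool of primordial follicles. Protein levels, lipid coupling of LC3 and autophagic flux were not measured, and poly(A) tail length, which changes on stored oocyte mRNA, also bears on capture by oligo dT and was not measured.

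Promoter sequences are shown for 3 members whose transcripts passed a test below, Atg9a (higher in aged than in young and lower with spermidine), Atg7 (higher in aged) and Atg10 (lower in aged). Each run is the 250 bases before an annotated start, 5′ to 3′ on the strand of the gene, from RefSeq on build GRCm38.p6. A gene can have other starts, and whether oocytes use the start shown was not tested. Bases just after the start shown were found in a GENCODE M21 transcript for Atg9a and Atg7 and not for Atg10. Capitals mark CACGTG, the core of the element bound by the TFEB family of autophagy and lysosome regulators.
Atg9a, chr1:75192011-75192260, minus strand: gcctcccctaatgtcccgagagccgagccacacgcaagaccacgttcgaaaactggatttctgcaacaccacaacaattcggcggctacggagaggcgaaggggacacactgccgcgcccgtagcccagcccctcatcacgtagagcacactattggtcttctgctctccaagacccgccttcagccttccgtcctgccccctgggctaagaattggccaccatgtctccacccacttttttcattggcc
Atg7, chr6:114670846-114671095, plus strand: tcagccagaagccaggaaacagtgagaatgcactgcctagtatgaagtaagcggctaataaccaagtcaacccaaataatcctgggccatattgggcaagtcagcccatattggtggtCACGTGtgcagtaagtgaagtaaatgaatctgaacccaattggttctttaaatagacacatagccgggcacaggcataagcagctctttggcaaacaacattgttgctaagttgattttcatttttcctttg
Atg10, chr13:91223988-91224237, minus strand: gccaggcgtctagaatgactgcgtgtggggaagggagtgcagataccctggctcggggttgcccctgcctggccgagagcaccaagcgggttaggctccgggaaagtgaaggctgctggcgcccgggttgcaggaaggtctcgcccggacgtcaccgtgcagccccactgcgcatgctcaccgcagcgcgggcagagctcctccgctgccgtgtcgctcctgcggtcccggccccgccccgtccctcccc
The table of promoters held 26 of the 33 members. CACGTG, which reads the same on both strands, was in the 250-base windows of 3 of them (Atg3, Atg5 and Atg7), where 6.02% of all 32851 windows held it, and in Atg7 its first base lay at position -132 from the start. TGTTTAC or its reverse complement GTAAACA, a FOXO-type motif, was in 0 of the 26 members and in 3.17% of all windows. Members were counted as genes and the background as windows (32851 over 27025 genes), so these shares are in unlike units. A match describes these letters and is not a binding site, and the windows are not on the mm9 build that the submitters' processing notes name.

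Libraries held 24222201 to 28730822 expected counts, and levels are given as CPM, that is, relative to the total count of the library, scaled by TMM. All 12 oocyte markers passed the filter on low counts, and 3 of them passed the test between aged and young oocytes: Ddx4 (77.7 against 26.1 CPM on average, also lower with spermidine than in aged oocytes, at 35.4 CPM), Nlrp5 (909 against 446 CPM) and Figla, which was lower in aged (16.8 against 24.7 CPM). Granulosa and cumulus markers summed to 21.5 to 27.1 CPM in spermidine, 20.2 to 23.8 CPM in aged and 19.2 to 23.2 CPM in young libraries, where 5 of the 10 markers were tested. Of these Fshr (1.68 against 0.473 CPM on average) and Nr5a2 (6.77 against 4.44 CPM) were higher in aged than in young oocytes, and Nr5a2 also in spermidine (7.61 CPM) than in young oocytes, while Cyp19a1, Inha and Kitl did not pass in any comparison. Haemoglobin RNA was found in aged replicate 1 (9.64 CPM) and in young replicates 1 (19.9 CPM) and 3 (13.6 CPM), with at most 0.145 CPM in the other 7 libraries. Across genes, the deviations of a library from the mean of all libraries were correlated with transcript length. Spearman's rho was highest in aged replicate 1 (0.49), with 0.065 and 0.059 in aged replicates 2 and 3. It was -0.23 to 0.20 in spermidine and -0.29 to -0.16 in young libraries, so aged and young did not overlap. With GC content rho was -0.17, 0.29 and 0.42 in aged, -0.21 to 0.24 in spermidine and -0.35 to 0.14 in young libraries. The part of these differences in the results below was not tested beyond the values given with libraries left out or after correction for length and GC content.

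The members spanned a wide range of levels. Per kilobase of transcript (the median annotated length of the gene), Atg5, whose protein is the acceptor of ATG12, was the most abundant member at 186 CPM per kilobase, above 96.5% of tested genes with a length. Map1lc3b followed at 52.3, Atg101 at 31.1, Atg12 at 27.8, Gabarapl2 at 21.9 and Becn1 at 16.4 CPM per kilobase. At the other end, Atg4d had no count in 7 of the libraries and about 1 count in each of the other 3. Gabarapl1 had 0 to 4 counts and Atg4c 2 to 11 counts per library. These 3 members did not pass the filter, which leaves 30 tested members.

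**Figure D1:**
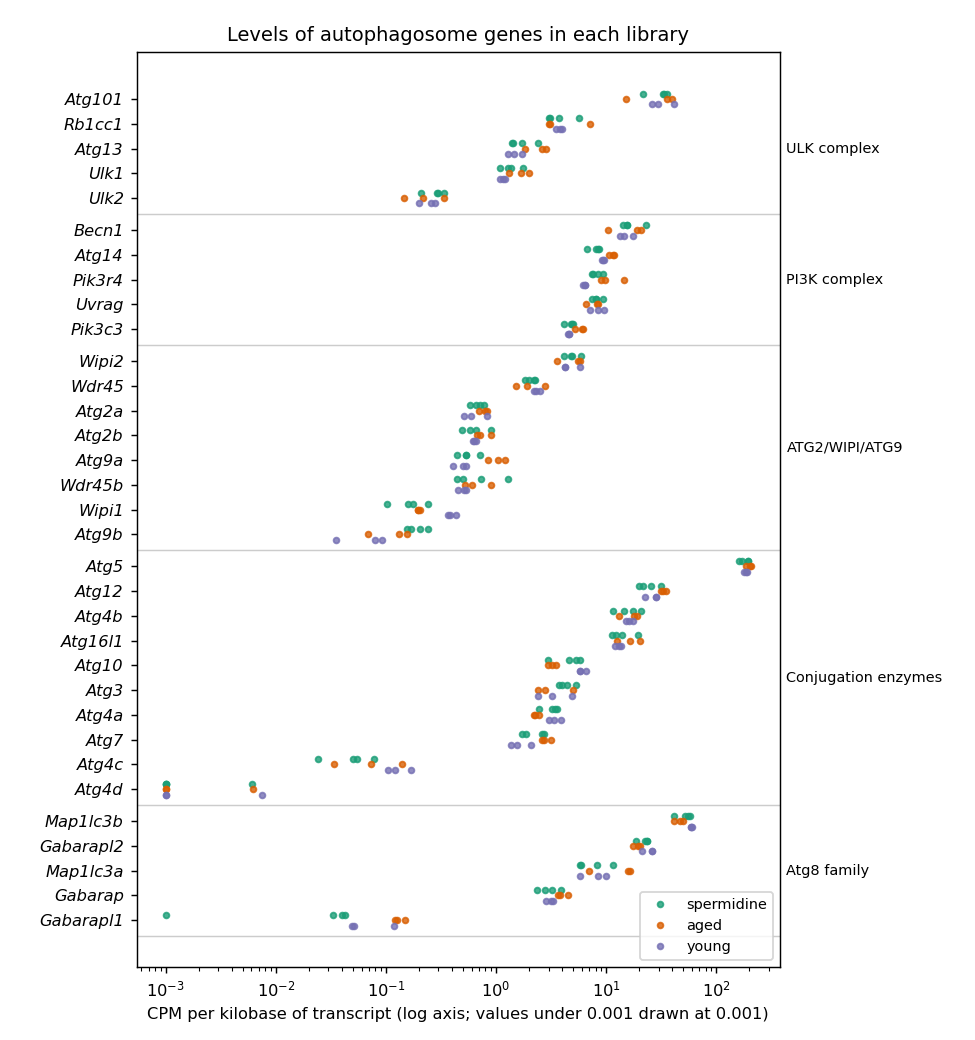
CPM per kilobase of transcript on a log axis for the 33 members, grouped by step and ordered by mean, with a point per library coloured spermidine, aged or young. Atg5 lies far to the right of all other members, and Atg4c, Atg4d and Gabarapl1 lie far to the left of their steps.

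Few members passed the test in any comparison, and a member that did not pass is not thereby shown to be unchanged. Between aged and young oocytes 3 of the 30 tested members were higher in aged (Pik3r4, Atg9a and Atg7) and 1 was lower (Atg10), which is 13.3% of members where 17.8% of all 12315 tested genes passed, 9.71% higher and 8.06% lower (edgeR's quasi-likelihood test, Benjamini-Hochberg adjusted p under 0.05). Between spermidine and aged oocytes 2 members were lower with spermidine (Atg9a and Atg14) and 0 higher, 6.67% of members where 4.86% of all genes passed, 2.42% higher and 2.44% lower. Between spermidine and young oocytes 0 members passed by edgeR, where 5.36% of all genes did (3.44% higher and 1.92% lower), with 3 of 30 at an unadjusted p under 0.05 (20.0% of all genes) and 1 (Wipi1) past the threshold by DESeq2. These shares are near or below those of all genes. In RNA from whole libraries, fewer cells that express a gene and less RNA of it per cell cannot be told apart. The authors' deposited table has q under 0.05 for 4 members in aged over young and 2 in spermidine over aged, and these are the members called here. The comparisons share libraries, so a member high in the aged libraries moves in opposite directions in the comparisons that hold them.

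The median log2 fold change of the tested members was 0.25 for aged minus young, beside 0.10 over all tested genes. It was -0.16 for spermidine minus aged, beside -0.03 over all genes, and 0.05 for spermidine minus young, beside 0.04. Groups did not overlap in 10 members higher and 5 lower in aged than in young libraries, 50% of members where 40.0% of all genes had no overlap (21.1% higher and 18.8% lower). For spermidine against aged this held for 2 members higher and 3 lower (16.7%, beside 19.9% of all genes, 11.4% higher and 8.49% lower), and for spermidine against young for 2 higher and 3 lower (16.7%, beside 21.0%, 12.1% higher and 8.92% lower). Scaling by total counts instead of TMM moved the median of all genes for aged minus young to 0.24 and the split of called members to 4 higher and 0 lower, and with RLE factors it was 2 higher and 2 lower. The count of 4 members was 0 without young replicate 3, 2 without aged replicate 2, aged replicate 3 or young replicate 1, and 0 without the 3 libraries that held haemoglobin RNA, which leaves 1 young library and 125 calls over all genes. The count of 2 members for spermidine against aged was 0 without any 1 of 7 libraries (aged replicate 2 or 3, spermidine replicate 2 or 3, and young replicate 1, 2 or 3), 1 without aged replicate 1 (Map1lc3a, with Atg9a and Atg14 both lost) or spermidine replicate 1 (Atg9a), and 4 without spermidine replicate 4.

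**Figure D2:**
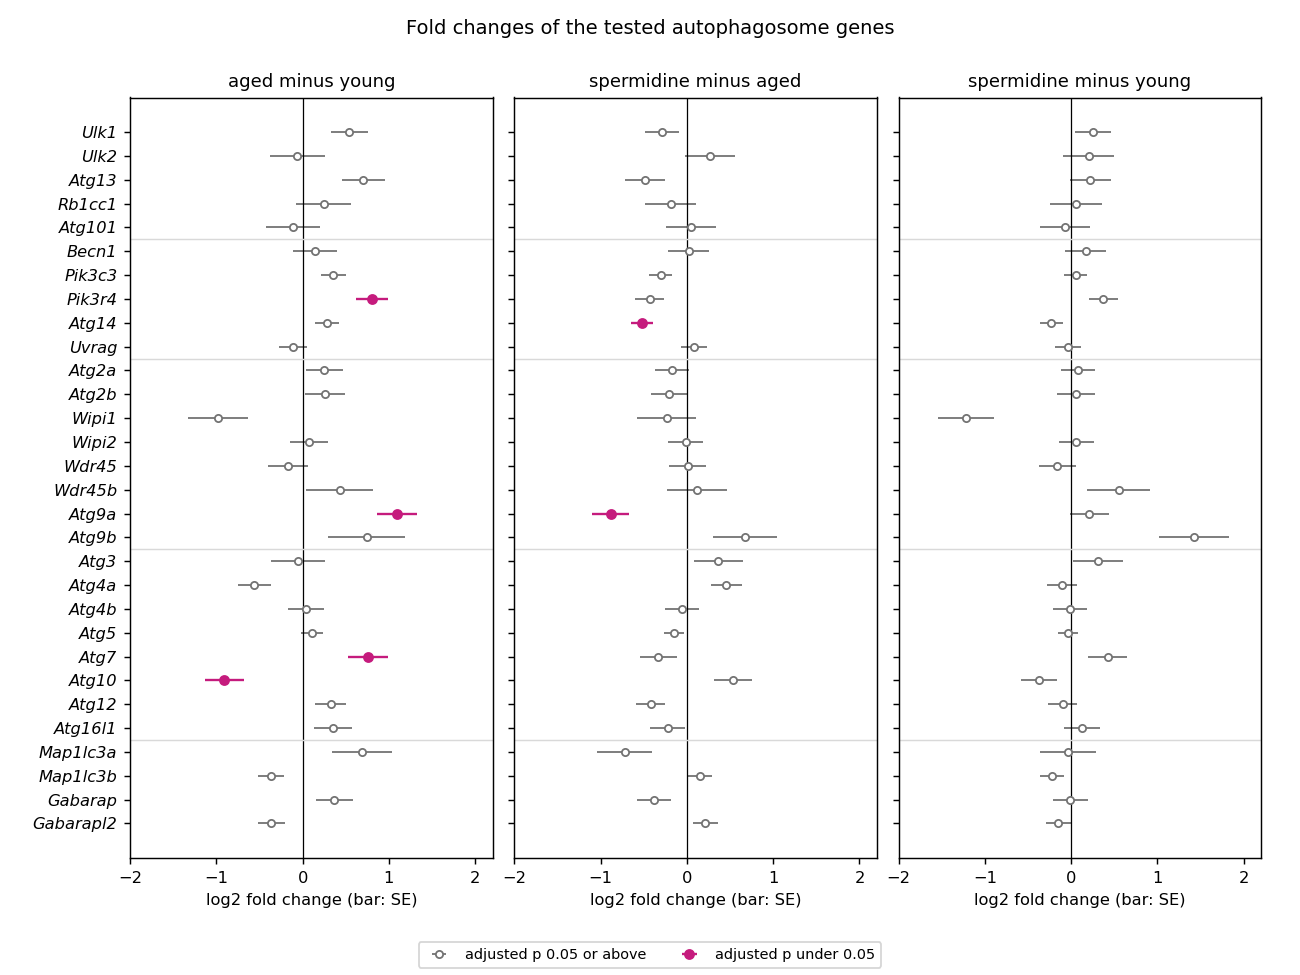
Log2 fold change of the 30 tested members in the 3 comparisons, with bars of 1 SE and filled points where the adjusted p was under 0.05. Filled points are Pik3r4, Atg9a, Atg7 and Atg10 for aged minus young and Atg14 and Atg9a for spermidine minus aged, and no point is filled for spermidine minus young.

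In the ULK complex, which starts the process, no member passed in any comparison by edgeR. DESeq2 called Atg13 alone, higher in aged than in young oocytes, and 2 of the 5 members had an unadjusted p under 0.05 there, where 34.7% of all genes did (0 in each of the other comparisons). Atg13, the regulatory subunit that holds the kinase to the complex, had 4.99, 5.11, 6.12 and 8.63 CPM in spermidine libraries, 6.51, 10.2 and 9.39 CPM in aged libraries and 4.61, 6.18 and 5.16 CPM in young libraries. Every aged library lay above every young library, and spermidine replicate 4 lay among the aged ones. Its log2 fold change for aged minus young was 0.70 (SE 0.25, edgeR adjusted p = 0.0700). By edgeR it passed in 2 of the 10 fits without 1 library. These were the fits without aged replicate 1 (0.83, adjusted p = 0.0338) and without spermidine replicate 4 (0.70, adjusted p = 0.0398).

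Of the 2 ULK kinases, Ulk1 was the more abundant per kilobase, with 1.39 against 0.256 CPM per kilobase for Ulk2. Ulk1 had 6.02, 4.79, 5.59 and 7.67 CPM in spermidine libraries, 8.84, 5.80 and 7.38 CPM in aged libraries and 5.30, 5.06 and 4.76 CPM in young libraries. The aged libraries were all above the young ones, and the difference did not pass (log2 0.54, SE 0.22, edgeR adjusted p = 0.100). Rb1cc1, which encodes the large scaffold FIP200, had 42.7, 28.6, 23.1 and 23.4 CPM in spermidine libraries, 54.1, 23.0 and 23.7 CPM in aged libraries and 26.6, 29.9 and 28.7 CPM in young libraries. Its aged mean was carried by aged replicate 1 alone, and its transcript is the longest of the members at 7607 bases. Atg101, which stabilises ATG13, had 42.6, 41.3, 27.7 and 45.4 CPM in spermidine libraries, 19.4, 45.0 and 49.9 CPM in aged libraries and 37.6, 52.5 and 33.3 CPM in young libraries. It was lowest in aged replicate 1, the other libraries of all groups overlapped, and its transcript has 1270 bases.

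In the PI3K complex Pik3r4 was higher in aged than in young oocytes and Atg14 was lower with spermidine than in aged oocytes. Pik3r4 (Gene ID 75669), the pseudokinase scaffold VPS15, had 43.8, 34.8, 36.0 and 39.7 CPM in spermidine libraries, 67.9, 46.0 and 42.2 CPM in aged libraries and 29.1, 30.1 and 30.2 CPM in young libraries. The young libraries were close together, all aged and all spermidine libraries lay above them, and spermidine replicate 1 lay between the lowest aged libraries. The means were 38.6 CPM ± 4.06 (SD, n = 4), 52.0 CPM ± 13.9 (SD, n = 3) and 29.8 CPM ± 0.580 (SD, n = 3) in spermidine, aged and young. Its log2 fold change for aged minus young was 0.80 (SE 0.18, edgeR adjusted p = 0.0122), and 0.52 (adjusted p = 0.0314) without aged replicate 1 and 0.52 (adjusted p = 0.0255) after correction for length and GC content, by edgeR. The call was lost without young replicate 1 (0.75, adjusted p = 0.0603) and without young replicate 3 (0.76, adjusted p = 0.0547). For spermidine minus aged it was -0.43 (adjusted p = 0.144) and for spermidine minus young 0.37 (adjusted p = 0.247), by edgeR.

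Atg14 (Gene ID 100504663), the subunit that directs the lipid kinase to sites of autophagosome formation, had 30.0, 24.0, 28.8 and 31.1 CPM in spermidine libraries, 41.8, 42.1 and 38.3 CPM in aged libraries and 33.3, 34.0 and 32.8 CPM in young libraries. All spermidine libraries lay below all young ones, and all young ones below all aged ones. Exons of Atg14 overlap the antisense gene Gm49004 on the opposite strand by 239 bases, and Gm49004 was not analysed here. The means were 28.5 CPM ± 3.11 (SD, n = 4) with spermidine, 40.8 CPM ± 2.12 (SD, n = 3) in aged and 33.4 CPM ± 0.615 (SD, n = 3) in young oocytes. For spermidine minus aged the log2 fold change was -0.52 (SE 0.13, edgeR adjusted p = 0.0432), and -0.41 (adjusted p = 0.0458) after length and GC correction. The direction held with each library left out (-0.56 to -0.46), but the call was kept in 1 of those 10 fits, the fit without spermidine replicate 4, with an adjusted p of at most 0.133 in the others, by edgeR. It was also lost with total counts (adjusted p = 0.127), no filter (0.0695) and only the groups compared (0.107), by edgeR. Aged minus young was 0.29 (adjusted p = 0.160) and spermidine minus young -0.23 (adjusted p = 0.356), neither past edgeR's threshold.

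Pik3c3, the catalytic subunit VPS34, had 15.1, 12.8, 15.4 and 14.9 CPM in spermidine libraries, 19.1, 18.5 and 16.2 CPM in aged libraries and 14.3, 13.8 and 14.1 CPM in young libraries. The aged libraries lay above all others, by a small margin, and no comparison passed (edgeR adjusted p = 0.107 for aged minus young and 0.194 for spermidine minus aged). All 10 counts of Pik3c3 were not whole, so its level is uncertain. Uvrag, which replaces ATG14 in an endosomal form of the complex, had 47.9, 38.4, 41.5 and 41.3 CPM in spermidine libraries, 42.5, 34.0 and 43.4 CPM in aged libraries and 43.2, 49.7 and 36.9 CPM in young libraries, and the 3 groups overlap. Its exons overlap the antisense gene Gm45187 on the opposite strand by 1589 bases, so its level is uncertain too. Becn1, the regulatory subunit Beclin 1, had 21.3 to 34.1 CPM in spermidine, 15.5 to 30.8 CPM in aged and 20.1 to 26.3 CPM in young libraries. Becn1 is uncertain, since its annotated exons overlap those of Cntd1 on the opposite strand over 3104 bases, all 10 of its counts were not whole, and whether counting used strand is not given in the sources used here. Cntd1 itself was lower in aged than in young oocytes (4.98 against 11.9 CPM on average, log2 -1.25, edgeR adjusted p = 0.00540).

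Among the genes of membrane delivery Atg9a was higher in aged than in young oocytes and lower with spermidine than in aged oocytes, the only member called in more than 1 comparison. Atg9a (Gene ID 245860), the scramblase of the vesicles that seed the membrane, had 2.92, 2.14, 1.78 and 2.15 CPM in spermidine libraries, 4.84, 3.41 and 4.22 CPM in aged libraries and 2.03, 2.15 and 1.65 CPM in young libraries. Each aged library lay above every spermidine and every young library, and the spermidine and young libraries overlapped. As counts these were 97, 59, 44 and 56 reads with spermidine, 145, 90 and 115 reads in aged and 44, 60 and 37 reads in young libraries. The means were 2.25 CPM ± 0.479 (SD, n = 4) with spermidine, 4.16 CPM ± 0.716 (SD, n = 3) in aged and 1.94 CPM ± 0.265 (SD, n = 3) in young oocytes. The gene stood low for a tested gene, above 25.9% of them per kilobase.

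The log2 fold change of Atg9a was 1.09 for aged minus young (SE 0.24, edgeR adjusted p = 0.00989) and -0.88 for spermidine minus aged (SE 0.21, adjusted p = 0.0395). For spermidine minus young it was 0.21 (95% interval -0.28 to 0.70, adjusted p = 0.640), by edgeR. The authors' deposited table gives it a log2 ratio of 1.06 for aged over young (q = 0.00666) and -0.90 for spermidine over aged (q = 0.0257). After length and GC correction the edgeR values were 0.72 (adjusted p = 0.0317) and -0.65 (adjusted p = 0.0543). The aged minus young call was kept in 9 of the 10 fits without 1 library and lost without young replicate 3 (0.94, adjusted p = 0.0522). The spermidine minus aged call was kept in 2 of the 10, those without spermidine replicate 1 or 4, with an adjusted p of at most 0.120 in the 8 fits that lost it. It was also lost with total counts (-0.83, edgeR adjusted p = 0.120), no filter (-0.88, adjusted p = 0.0519) and only the groups compared (-0.89, adjusted p = 0.0844). Ankzf1, whose exons overlap Atg9a by 46 bases on the opposite strand, had 3.71, 3.77 and 3.95 CPM on average in spermidine, aged and young oocytes and did not pass. A noncoding transcript (Gm29253) that shares 1832 exonic bases with Atg9a on its own strand was not analysed here.

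Atg9b, the paralog of Atg9a, was near the floor at 3 to 23 reads per library. It had 0.602, 0.798, 0.931 and 0.652 CPM in spermidine libraries, 0.601, 0.265 and 0.514 CPM in aged libraries and 0.138, 0.359 and 0.311 CPM in young libraries. The spermidine libraries lay above the young ones and above aged replicates 2 and 3, and spermidine replicate 1 was all but equal to aged replicate 1. Spermidine minus young was 1.42 on the log2 scale (SE 0.41, edgeR adjusted p = 0.0665). Reads of Atg9b were nearly all split (9 of 10 counts not whole), and it overlaps Nos3 on the opposite strand by 294 bases, so its level is uncertain. Wipi1, a reader of phosphatidylinositol 3-phosphate, had 7 to 13 reads in spermidine, 11 to 12 in aged and 17 to 21 in young libraries. In CPM that was 0.211, 0.363, 0.324 and 0.499 with spermidine, 0.400, 0.417 and 0.404 in aged and 0.783, 0.754 and 0.889 in young libraries, with the young ones above all others. For spermidine minus young its log2 fold change was -1.22 (SE 0.33, edgeR adjusted p = 0.0501). It passed by DESeq2 (adjusted p = 0.0419). Of the 10 edgeR fits without 1 library it passed in 2, those without aged replicate 1 (adjusted p = 0.0472) or spermidine replicate 4 (0.0292). For aged minus young the log2 fold change of Wipi1 was -0.98 (SE 0.34, edgeR adjusted p = 0.0668). That difference passed in 1 of the 10 such fits, the fit without spermidine replicate 1 (-1.02, adjusted p = 0.0455).

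Wipi2, the WIPI that recruits ATG16L1, was the most abundant gene of this step per kilobase, at 4.89 CPM per kilobase. It had 14.7, 17.1, 17.4 and 21.1 CPM in spermidine libraries, 12.7, 19.9 and 20.7 CPM in aged libraries and 15.0, 20.5 and 15.1 CPM in young libraries, with overlap between all groups. The other WIPI family genes Wdr45 (2.04 to 3.68 CPM over all libraries) and Wdr45b (1.02 to 2.95 CPM) and the lipid transfer genes Atg2a (3.29 to 5.25 CPM) and Atg2b (3.69 to 6.86 CPM) did not pass in any comparison by edgeR. Exons of Wdr45 share 818 bases with Gm45208 on the same strand, and those of Atg2b overlap Gskip on the opposite strand by 383 bases.

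**Figure D3:**
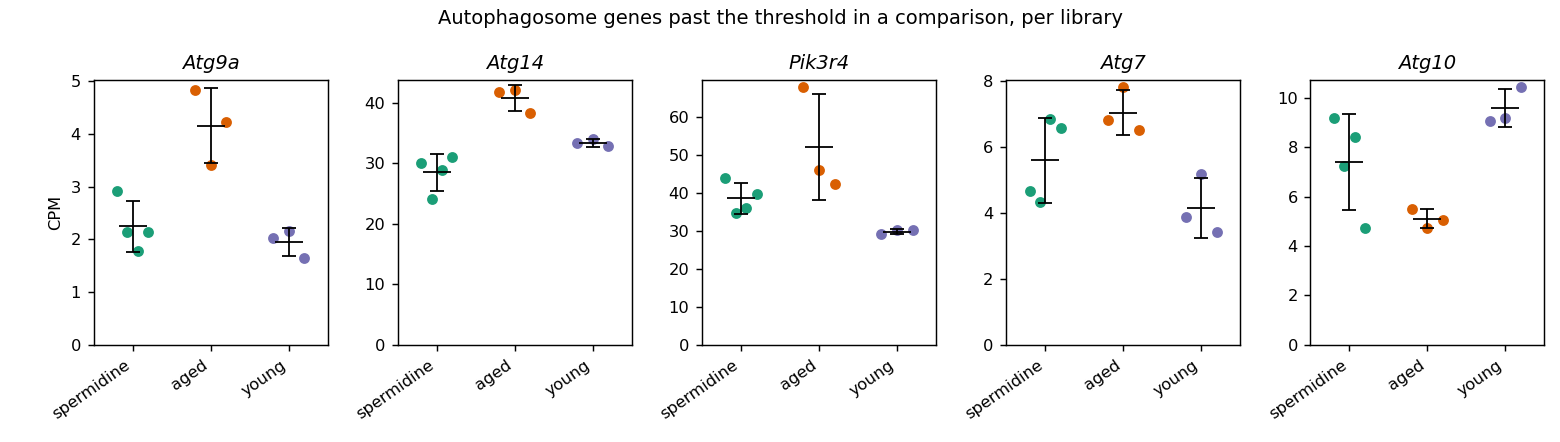
CPM in every library for the 5 members past the threshold in a comparison, in spermidine, aged and young oocytes, with the group mean and SD in black and axes that start at 0. The aged libraries stand above all others for Atg9a and Atg14 and below all young ones for Atg10, and aged replicate 1 is the high point of Pik3r4.

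Among the conjugation enzymes Atg7 was higher and Atg10 lower in aged than in young oocytes. Atg7 (Gene ID 74244), the activating enzyme shared by both conjugation systems, had 4.66, 4.31, 6.84 and 6.56 CPM in spermidine libraries, 6.81, 7.81 and 6.50 CPM in aged libraries and 3.87, 5.17 and 3.42 CPM in young libraries. The aged libraries lay above the young ones, and the spermidine libraries formed a lower pair near the young and a higher pair near the aged level. Its log2 fold change for aged minus young was 0.76 (SE 0.23, edgeR adjusted p = 0.0437). The call was kept in 3 of the 10 fits without 1 library (those without spermidine replicate 3, spermidine replicate 4 or young replicate 2), the value being 0.58 without young replicate 3 (adjusted p = 0.181) and 0.67 without young replicate 1 (adjusted p = 0.165), by edgeR. The call was also lost after length and GC correction (0.62, edgeR adjusted p = 0.0511), with RLE factors (0.72, adjusted p = 0.0510), with no filter (0.77, adjusted p = 0.0528) and with only the groups compared (0.71, adjusted p = 0.0530). A replicate block lost it too (0.76, edgeR adjusted p = 0.0535). Spermidine minus aged was -0.33 (adjusted p = 0.366) and spermidine minus young 0.42 (adjusted p = 0.316), by edgeR.

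Atg10 (Gene ID 66795), the conjugating enzyme of the ATG12 system, had 9.17, 7.25, 8.42 and 4.72 CPM in spermidine libraries, 5.51, 4.74 and 5.06 CPM in aged libraries and 9.08, 9.19 and 10.5 CPM in young libraries. All aged libraries lay below all young ones, and spermidine replicate 4 lay at the aged level while the other 3 lay between the groups or at the young level. The means were 7.39 CPM ± 1.95 (SD, n = 4) with spermidine, 5.10 CPM ± 0.385 (SD, n = 3) in aged and 9.57 CPM ± 0.763 (SD, n = 3) in young oocytes. Its log2 fold change was -0.91 for aged minus young (SE 0.23, edgeR adjusted p = 0.0197). The call was lost after length and GC correction (-0.61, edgeR adjusted p = 0.0634) and with total counts (-0.76, adjusted p = 0.0848). The call was lost without aged replicate 2 (-0.86, adjusted p = 0.0620), aged replicate 3 (-0.90, adjusted p = 0.0541) or young replicate 3 (-0.89, adjusted p = 0.0567). For spermidine minus aged it was 0.54 (SE 0.22, edgeR adjusted p = 0.155), and 0.70 (adjusted p = 0.0313) without spermidine replicate 4. That was the only 1 of the 10 fits without 1 library in which spermidine minus aged passed.

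Atg5, Atg12 and Atg16l1, whose products form the complex that places Atg8 proteins on the membrane, did not pass in any comparison by edgeR. Atg5 (Gene ID 11793) had 375, 400, 455 and 455 CPM in spermidine libraries, 440, 484 and 477 CPM in aged libraries and 436, 418 and 446 CPM in young libraries. The ranges overlap, and its 95% intervals on the log2 scale were -0.16 to 0.38 for aged minus young, -0.40 to 0.10 for spermidine minus aged and -0.29 to 0.21 for spermidine minus young. Per kilobase it was at 186 CPM, against 27.8 for Atg12 and 14.5 for Atg16l1. Atg12 had 94.4, 103, 123 and 151 CPM in spermidine libraries, 150, 167 and 156 CPM in aged libraries and 136, 107 and 135 CPM in young libraries. Its aged libraries lay above the young ones, and spermidine replicate 4 lay among the aged. The log2 fold change of Atg12 for spermidine minus aged was -0.42 (edgeR adjusted p = 0.145). It passed in 1 of the 10 fits without 1 library, the fit without spermidine replicate 4 (-0.56, edgeR adjusted p = 0.0392). Atg16l1 had 34.9 to 59.8 CPM in spermidine, 39.1 to 63.4 CPM in aged and 37.5 to 42.7 CPM in young libraries, with overlap between all groups.

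Of the 4 ATG4 proteases, which trim Atg8 proteins and release them from lipid, Atg4b was the most abundant, at 16.3 CPM per kilobase against 2.98 for Atg4a and 0.0847 for Atg4c. Atg4b had 47.9 to 86.1 CPM in spermidine, 54.2 to 78.9 CPM in aged and 62.7 to 72.9 CPM in young libraries, which overlap. Atg4a had 5.44, 7.07, 7.82 and 7.59 CPM in spermidine libraries, 5.41, 4.96 and 4.88 CPM in aged libraries and 6.63, 7.40 and 8.49 CPM in young libraries. The aged libraries of Atg4a lay below all others. Its aged minus young value of -0.56 (SE 0.19) had an edgeR adjusted p of 0.0585 and passed by DESeq2 (adjusted p = 0.0210). By edgeR it passed in 1 of the 10 fits without 1 library, the fit without spermidine replicate 1 (adjusted p = 0.0316). Atg3, the conjugating enzyme of the Atg8 system, varied more within groups than between them, from 7.67 to 10.9 CPM in spermidine, 4.90 to 10.3 CPM in aged and 4.98 to 10.1 CPM in young libraries.

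In the Atg8 family, the proteins coupled to the membrane, no member passed by edgeR or DESeq2 in any comparison, with 2, 1 and 0 of the 4 tested members at an unadjusted p under 0.05 for aged minus young, spermidine minus aged and spermidine minus young, where 34.7%, 24.2% and 20.0% of all genes were. Map1lc3b, which encodes LC3B, made up 60.0% of the family per kilobase and Gabarapl2 25.1%, with Map1lc3a at 10.9%, Gabarap at 3.85% and Gabarapl1 at 0.0841%. Map1lc3b had 68.1, 85.5, 94.9 and 90.8 CPM in spermidine libraries, 67.8, 83.0 and 78.2 CPM in aged libraries and 98.4, 99.5 and 98.0 CPM in young libraries. The young libraries lay above all others, and aged minus young was -0.37 (SE 0.15, edgeR adjusted p = 0.100). Of the 10 fits without 1 library it passed in 1, the fit without spermidine replicate 1 (-0.41, edgeR adjusted p = 0.0452). That library is in neither of the groups compared. Gabarapl2 had 31.3, 37.6, 39.8 and 39.5 CPM in spermidine libraries, 29.3, 33.8 and 32.8 CPM in aged libraries and 43.7, 35.4 and 44.0 CPM in young libraries. Its aged libraries lay below the young ones (-0.36, SE 0.15, edgeR adjusted p = 0.115).

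Map1lc3a, which encodes LC3A, had the opposite sign, with 6.62, 6.49, 9.19 and 12.8 CPM in spermidine libraries, 7.71, 18.1 and 17.5 CPM in aged libraries and 9.35, 11.0 and 6.49 CPM in young libraries. Aged replicates 2 and 3 lay above all other libraries, while aged replicate 1 lay within the young and spermidine ranges. With all libraries its log2 fold change was 0.69 (SE 0.35, edgeR adjusted p = 0.177) for aged minus young and -0.72 (SE 0.32, adjusted p = 0.190) for spermidine minus aged. Without aged replicate 1 the values were 0.95 (adjusted p = 0.0379) and -1.03 (adjusted p = 0.0450), by edgeR. For each comparison that was the only 1 of the 10 fits without 1 library to pass. Gabarap stood at 2.49 to 4.09 CPM in spermidine, 3.83 to 4.77 CPM in aged and 2.98 to 3.46 CPM in young libraries, the aged ones above the young, and aged minus young was 0.37 (SE 0.21, edgeR adjusted p = 0.239). After length and GC correction that value was 0.64 (edgeR adjusted p = 0.0436). It passed in no other setting, and in 0 of the 10 fits without 1 library.

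**Figure D4:**
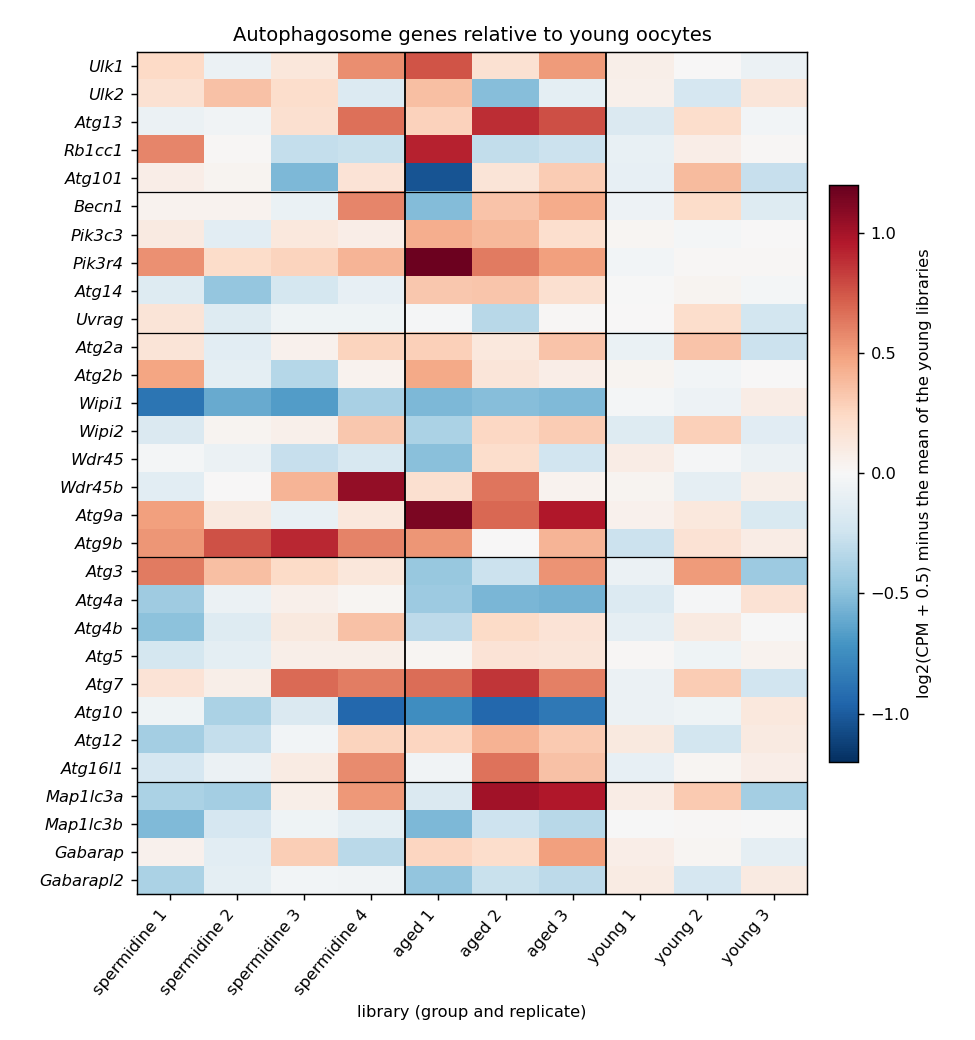
Colour shows log2(CPM + 0.5) minus the mean of the 3 young libraries for each tested member (in the order of the steps) in each library. Aged replicate 1 differs from aged replicates 2 and 3 in Rb1cc1, Atg101, Becn1 and Map1lc3a, and Atg9a is higher in all 3 aged libraries.

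The other genes of the pathway, a list of 36 with 32 tested, had 10 genes higher and 2 lower in aged than in young oocytes (37.5%, beside 17.8% of all genes). The list was chosen with earlier results of these data known, so its shares cannot be read as an enrichment. Whether its share for aged minus young differs from that of the members was not tested. For spermidine minus aged 1 was higher and 2 lower (9.38%, beside 4.86% of all genes), and for spermidine minus young 3 were higher and 0 lower (9.38%, beside 5.36%). Without 1 library the count of 12 for aged minus young was 4 without young replicate 1 and 6 without young replicate 3, and 9 to 13 without any other library. The count of 3 for spermidine minus aged was 1 without aged replicate 2 or 3, spermidine replicate 2 or 3 or young replicate 1 or 3, 2 without young replicate 2 and 5 without spermidine replicate 4. The count of 3 for spermidine minus young was 0 without young replicate 1, 1 without young replicate 2 or 3, 2 without spermidine replicate 1 and 5 without aged replicate 1. Without the 3 libraries that held haemoglobin RNA the counts were 0, 1 and 0. Of the 12 tested genes of closure and fusion with the lysosome 4 were higher in aged than in young oocytes (Stx17, Epg5, Vps11 and Vps33a) and 1 was lower (Vamp8). Vamp8, a fusion protein of the lysosome side, was the only one of these to pass between spermidine and aged oocytes, with 71.6 to 77.2 CPM in spermidine, 22.3 to 36.0 CPM in aged and 56.3 to 69.0 CPM in young libraries (log2 1.29, SE 0.17, edgeR adjusted p = 0.0029 for spermidine minus aged). Stx17 was also higher in spermidine than in young oocytes (log2 0.84, SE 0.17, edgeR adjusted p = 0.0106).

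Of 10 regulators of initiation and membrane supply, Ambra1 and Rubcn were higher and Vmp1 lower in aged than in young oocytes. Ambra1, which links the ULK and lipid kinase complexes, had 5.65, 4.17, 4.78 and 5.94 CPM in spermidine libraries, 7.77, 8.26 and 10.2 CPM in aged libraries and 4.05, 5.28 and 4.14 CPM in young libraries. Its aged libraries lay above all others, as with Atg9a, and it was lower with spermidine than in aged oocytes (log2 -0.77, SE 0.19, edgeR adjusted p = 0.0409). Rubcn, the inhibitor of the UVRAG form of the lipid kinase complex, was higher in aged than in young oocytes by 0.68 on the log2 scale (SE 0.15, edgeR adjusted p = 0.0108), and Vmp1, a scramblase of the endoplasmic reticulum, was lower (-0.50, SE 0.13, adjusted p = 0.0208). Of 7 cargo adaptors Calcoco1, Optn and Tollip were higher in aged than in young oocytes, and Calcoco1 and Optn also in spermidine than in young oocytes. Of 3 tested transcription factors Tfe3, of the family that binds CACGTG, was higher in aged than in young oocytes (0.75, SE 0.16, edgeR adjusted p = 0.0110) and lower with spermidine than in aged oocytes (-0.62, SE 0.15, adjusted p = 0.0411), with 19.9 to 27.3 CPM in spermidine, 34.0 to 37.5 CPM in aged and 18.9 to 23.2 CPM in young libraries. Mitf and Foxo3 did not pass in any comparison, and Tfeb, with at most 0.138 CPM in a library, was not tested. The counts of calls on the list of other pathway genes moved when 1 library was left out, as given above. Which of the listed genes, Ambra1 and Tfe3 among them, lost their calls was not examined.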

How the data were processed

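Per the file headers, the single table the authors deposited holds a read count for each of 18493 genes in 10 libraries. The authors deposited these unnormalised, and since many are not whole they were treated here like RSEM's expected count. It also holds log2 ratios with p-values and q-values that the authors computed for spermidine over aged and aged over young. Per the submitters' processing notes the tools were RSEM 1.3.1, Bowtie2 2.3.4.3 and DESeq2 1.4.5, on build mm9, and neither their roles nor strand use are given in the sources used here. Counts were rounded, filtered by filterByExpr (12315 of 18493 genes kept), scaled by TMM and tested in 1 edgeR 4.0.16 quasi-likelihood fit (R 4.3.3, robust, all 10 libraries, a mean per group), with Benjamini-Hochberg adjustment over all tested genes and a threshold of 0.05. SEs are those implied by the F statistic, and intervals are 95%. Alternatives included DESeq2 1.42.0. Lengths are medians of GENCODE M21 (GRCm38) protein-coding transcripts, found for 97.6% of tested genes. The precision of low genes is set by their counts, since libraries had 24222201 to 28730822 counts, and reads carry no molecular identifiers. Replicate numbers of the titles were not taken as pairs. By rule, library values were given for members past the threshold and for the highest member by mean CPM in each step, and other pathway genes were named where called. Library values of further members were added after their values were seen, as were the uncalled Mitf, Foxo3 and Tfeb. The members and lists were chosen with earlier results of these data known. The length and GC correction (loess on length and GC, span 0.5) and leaving out the libraries with haemoglobin RNA were added after seeing the data. Simulated data with 200 changed genes were used to test the procedure. Figures: Python 3.11.15, matplotlib 3.10.9.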

Additional observations from a re-analysis of the deposited data

Results flagged for a closer look

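Among the 30 tested members 1 library stood apart within the spermidine group, the only group large enough for this check. Becn1 had 34.1 CPM in spermidine replicate 4, against 21.3 to 23.1 CPM in the other 3 spermidine libraries, a gap of 0.857 of the range, above the 95% critical value of Dixon's test. A gap of this size is met by chance in about 1 of 20 groups, and 30 members were looked at. In Becn1 that library lay above all aged libraries, which had 15.5 to 30.8 CPM. The spermidine library nearest to the aged mean differed between members. It was spermidine replicate 4 in Atg10, Atg12 and Atg13, spermidine replicate 1 in Pik3r4, Atg9a, Atg4a and Map1lc3b, and spermidine replicate 3 in Atg7.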

How the results depend on the processing

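For aged minus young, the count of 4 members was 1 with a minimum of 10 CPM in 3 libraries, 7 without aged replicate 1 and spermidine replicate 1 together, 0 without the haemoglobin libraries, and 0 to 6 with 1 library left out. All called genes numbered 2189, with 1182 under the 10 CPM minimum, 125 without the haemoglobin libraries and 835 to 2362 with 1 library left out. The members' median of 0.25 was 0.40 with total counts, 0.15 under the 10 CPM minimum, 0.11 after length and GC correction, 0.10 without the haemoglobin libraries and 0.14 to 0.27 with 1 library left out. For spermidine minus aged, the count of 2 members was 0 with total counts, no filter, only the 2 groups compared or no haemoglobin libraries, 1 under the 10 CPM minimum, without aged replicate 1 and spermidine replicate 1 together or after length and GC correction, and 0 to 4 with 1 library left out. All called genes numbered 598, with 259 by total counts, 1366 by DESeq2, 121 with only the 2 groups, 138 without the haemoglobin libraries and 86 to 1124 with 1 library left out. The median of -0.16 was -0.054 after length and GC correction and -0.20 to -0.072 with 1 library left out. For spermidine minus young, the count of 0 members was 1 with RLE factors, total counts, DESeq2 or the length and GC correction, and 0 to 1 with 1 library left out. All called genes numbered 660, with 263 under the 10 CPM minimum, 1099 by DESeq2, 126 without the haemoglobin libraries and 283 to 872 with 1 library left out. The median of 0.05 was 0.23 with total counts, -0.072 without the haemoglobin libraries and -0.064 to 0.087 with 1 library left out. With a replicate block the members called were 4 for aged minus young, 4 for spermidine minus aged (998 over all genes) and 0 for spermidine minus young. Deviations of same-numbered libraries correlated at -0.357 to 0.511, so the numbers were not read as pairs, and not every library correlated best with its own number. The causes of these shifts were not tested, except that leaving out libraries leaves fewer samples and a higher minimum fewer genes. Depth limits Atg9b, Wipi1 and the 3 untested members.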
